A study of Sus scrofa with 12 samples.

Results

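Transcripts of adherens and tight junctions were followed in primary porcine arterial endothelial cells (ECs) under 3 levels of wall shear stress (WSS). The genes were taken by symbol: CDH5 and CTNNB1 of adherens junctions, PECAM1, ESAM, F11R and JAM2 of the cell border, OCLN, TJP1 and CLDN5 of tight junctions, and the polarity gene PARD6A. Of these 10 genes, 9 were read among the 21153 genes of the count table, and all 9 passed the filter on low counts. CLDN5 was not analysed here. RNA of 12 cultures was sequenced after 48 h of flow. Replicate numbers 1 to 3 were read as 3 donor pigs. Each number had 1 culture at 2 dyne/cm2 (low WSS), 1 at 80 dyne/cm2 (supra-high WSS) and 2 at 30 dyne/cm2 (physiological WSS), here called set 1 and set 2. The study states that compared cultures shared donor and passage, but not that the same pigs served both comparisons. The labels name no genotype and no treatment other than flow, and all cultures shared a medium with serum and heparin. The labels call the cells aortic and the methods name coronary arteries, and the 2 sources also differ on the flow slides and seeding used for 80 dyne/cm2 and its controls. The cultures at 2 dyne/cm2 were compared with set 1 and those at 80 dyne/cm2 with set 2, within donor, although the labels do not state which set served which condition.

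ECs are held together by transmembrane proteins that bind their like on the neighbouring cell. VE-cadherin does so in adherens junctions and hands the load to actin through catenins, whereas claudins, occludin and the junctional adhesion molecules seal tight junctions and dock on the scaffold ZO-1 and on the Par polarity complex. PECAM-1 and VE-cadherin also belong to the mechanosensory complex through which ECs sense flow, which made these genes of interest in a study of WSS.

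Library totals ran from 29606854 to 41058902 counts, with a median of 33871914. Levels are given as CPM, the count per 1000000 counts of the scaled library size. Together the 9 genes took 0.479 to 0.589% of all counts at 2 dyne/cm2, 0.742 to 0.815% in both sets at 30 dyne/cm2 and 0.801 to 0.877% at 80 dyne/cm2. The top gene of each library at 2 and 30 dyne/cm2 was FN1, and it took 2.47 to 5.98% of the counts at 30 dyne/cm2 and at least 5.23% at 2 dyne/cm2. Of 8 endothelial marker genes, 6 were measured, and their summed level was 1296 to 1388 CPM at 2 dyne/cm2, 1862 to 2487 CPM in set 1, 1850 to 2343 CPM in set 2 and 2284 to 2661 CPM at 80 dyne/cm2. All 10 markers of smooth muscle cells and fibroblasts summed to 14.6 to 72.5 CPM at 2 dyne/cm2, 4.68 to 21.3 CPM in set 1, 3.87 to 18.8 CPM in set 2 and 3.84 to 12.6 CPM at 80 dyne/cm2. DES had 0 counts in every library and ACTA2, CNN1, MYH11 and TAGLN stayed below 1 CPM. Leukocyte markers (5 genes) summed to 8.17 to 11.2 CPM at 2 dyne/cm2 and 15.2 to 22.6 CPM in set 1, and the 4 epithelial markers that were read summed to at most 0.211 CPM. Of the 6 endothelial markers, TEK (65.5 CPM at 2 dyne/cm2, 498.8 CPM in set 1), CLEC14A and EMCN fell at 2 vs. 30 dyne/cm2. The others did not pass, KDR at a log2 fold change of -1.27 (edgeR adjusted p = 0.0609), ERG at -0.22 (adjusted p = 0.134) and TIE1 at -0.18 (adjusted p = 0.255). Of 4 tested markers of smooth muscle cells and fibroblasts, PDGFRA and PDGFRB rose, COL1A1 did not pass (18.1 CPM at 2 dyne/cm2, 4.14 CPM in set 1, adjusted p = 0.0590 in edgeR) and LUM was at -0.11 (adjusted p = 0.763). Of 2 tested leukocyte markers, CD68 fell (-1.17, edgeR adjusted p = 0.00961) and CD14 did not pass. At 80 vs. 30 dyne/cm2, EMCN (2.33, edgeR adjusted p = 0.0112) and KDR (0.49, adjusted p = 0.0231) rose. The other 4 endothelial markers did not pass there. These summed levels thus moved in the same libraries in which several junction genes were lower, and their part in the junction results was not tested. In RNA of whole cultures, fewer cells of a type and less RNA per cell cannot be told apart.

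At 2 vs. 30 dyne/cm2, 4 of the 9 genes fell (CTNNB1, PECAM1, ESAM and PARD6A) and 0 rose in edgeR's quasi-likelihood test with the donor as a block, at a Benjamini-Hochberg adjusted p under 0.05. Among all 11226 genes tested, 25.8% passed, made up of 12.4% that fell and 13.4% that rose. At 80 vs. 30 dyne/cm2, 1 of the 9 genes rose (PARD6A) and 0 fell, while 8.4% of 11187 genes passed, 4.36% upwards and 4.04% downwards. With the 2-fold change that the study also required, 1 gene remained in each comparison, PARD6A both times, against a background of 9.6% at 2 dyne/cm2 and 2.2% at 80 dyne/cm2. An unadjusted p under 0.05 was reached by 6 of the 9 genes in the former comparison and 4 in the latter, and DESeq2 with the donor term called 4 and 2 of them. The background for the former was 4773 of 11226 by unadjusted p and 3325 by DESeq2. For the latter it was 2921 of 11187 and 1150. Without the donor block the call for PARD6A was lost in both comparisons, so that edgeR called 3 genes under low WSS and 0 under supra-high WSS (5 and 2 at an unadjusted p under 0.05, and 5 and 1 called by DESeq2). The unblocked background under low WSS was 1244 edgeR calls, 3465 genes by unadjusted p and 2542 DESeq2 calls. Under supra-high WSS these were 0, 929 and 230.

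**Figure D1:**
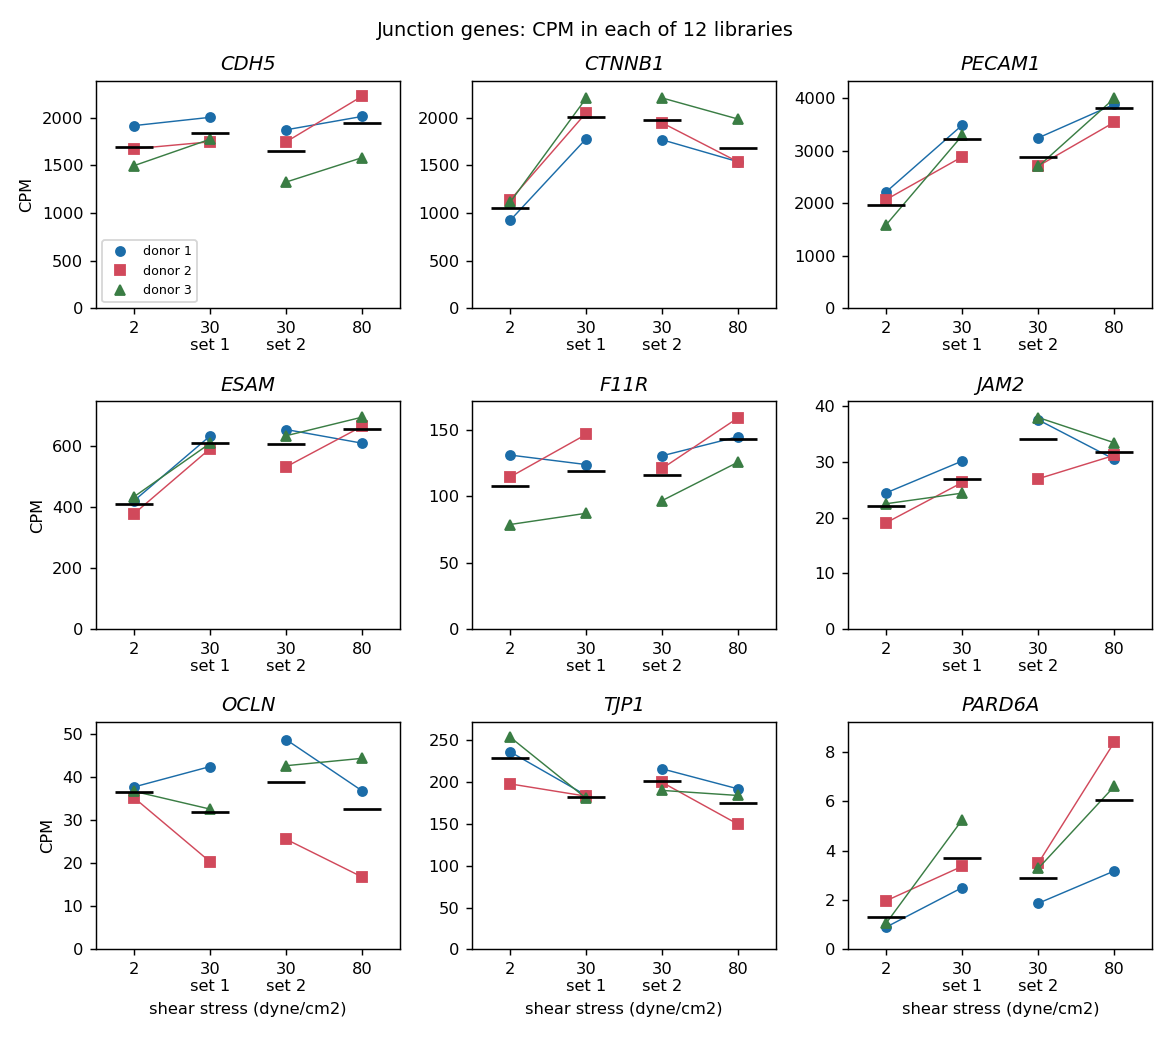
CPM (vertical axes, from 0) of each of the 9 junction genes by WSS in dyne/cm2, with 1 marker per library, coloured by donor. Lines join the cultures of a donor that were compared, and black bars are means of 3 donors. CTNNB1 lay at 923 to 1135 CPM at 2 dyne/cm2 and at 1536 to 2208 CPM in all other libraries, whereas the CDH5 groups overlapped.

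The adherens junction was represented by its cadherin and by the catenin that binds its tail. CDH5 (ENSSSCG00000035772; chromosome 6, 27108560 to 27142145 in the RefSeq annotation of Sscrofa11.1) encodes VE-cadherin. Its level in donors 1, 2 and 3 was 1916, 1674 and 1496 CPM at 2 dyne/cm2 and 2003, 1746 and 1773 CPM in set 1. In set 2 it was 1872, 1746 and 1325 CPM, and at 80 dyne/cm2 it was 2013, 2225 and 1581 CPM. The groups overlapped in both comparisons, although each donor was lower at 2 dyne/cm2 and higher at 80 dyne/cm2 than its own control. The log2 fold change was -0.11 (SE 0.12, 95% interval -0.41 to 0.20, edgeR adjusted p = 0.521) at 2 dyne/cm2 and 0.23 (SE 0.12, interval -0.045 to 0.51, adjusted p = 0.261) at 80 dyne/cm2. With set 2 as control the value at 2 dyne/cm2 turned to 0.054. Over the 12 libraries the donors took 55.7% of the variance in CDH5 log2 CPM, and the 4 groups 23.1%.

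CTNNB1 (ENSSSCG00000011274; chromosome 13, 25163550 to 25208314) encodes β-catenin, which links cadherins to α-catenin and also acts in Wnt signalling. In donors 1, 2 and 3 it was 923, 1135 and 1114 CPM at 2 dyne/cm2, against 1780.3, 2052 and 2205 CPM in set 1. Under supra-high WSS it was 1538, 1536 and 1986 CPM, against 1769, 1946 and 2208 CPM in set 2. Every culture at 2 dyne/cm2 lay below every culture of set 1, and the groups overlapped at 80 dyne/cm2. CTNNB1 fell by 0.91 on the log2 scale at 2 dyne/cm2 (SE 0.11, fold 0.531, edgeR adjusted p = 0.0092), and the 3 donors gave -0.95, -0.85 and -0.99. The log2 fold change at 80 dyne/cm2 was -0.24 (SE 0.12, adjusted p = 0.249). The groups took 87.2% of its variance and the donors 10.4%. Without donor 1 the fall had an adjusted p of 0.0544 in edgeR. The annotated CTNNB1 interval overlaps those of ULK4 and LOC106505576, so reads in shared exons may be uncertain.

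The 4 remaining adhesion molecules of the cell border belong to the immunoglobulin superfamily. PECAM1 (ENSSSCG00000017277; chromosome 12, 14667643 to 14723296, overlapping LOC110255989) encodes CD31, which binds its like between ECs. Its level in donors 1, 2 and 3 was 2218, 2072 and 1592 CPM at 2 dyne/cm2 and 3489, 2886 and 3291 CPM in set 1. It was 3886, 3545 and 4000.0 CPM at 80 dyne/cm2 and 3245, 2710.1 and 2702 CPM in set 2. The groups did not overlap in either comparison, and in each donor the order was 2, then 30, then 80 dyne/cm2 from lowest to highest. PECAM1 fell by 0.71 on the log2 scale at 2 dyne/cm2 (SE 0.16, fold 0.611, edgeR adjusted p = 0.0346). Its log2 fold change at 80 dyne/cm2 was 0.40 (SE 0.13, 95% interval 0.088 to 0.71), which did not pass in edgeR (adjusted p = 0.112) and passed in DESeq2 with the donor term (adjusted p = 0.0036). Leaving out donor 1 brought it past the threshold in edgeR at 80 dyne/cm2 (adjusted p = 0.0153) and took the call away at 2 dyne/cm2 (adjusted p = 0.143), as did leaving out donor 2 at 2 dyne/cm2 (adjusted p = 0.0714).

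ESAM (ENSSSCG00000015200; chromosome 9, 51983019 to 51992415) encodes an adhesion molecule of endothelial tight junctions and platelets. It was 419.6, 377 and 433 CPM in donors 1, 2 and 3 at 2 dyne/cm2 and 632, 591 and 608 CPM in set 1. Set 2 gave 653, 531 and 633 CPM and the cultures at 80 dyne/cm2 gave 609, 664 and 694 CPM. All cultures at 2 dyne/cm2 lay below all others, and the other 3 groups overlapped. ESAM fell by 0.56 on the log2 scale at 2 dyne/cm2 (SE 0.09, fold 0.678, edgeR adjusted p = 0.0179), with -0.59, -0.65 and -0.49 in the 3 donors. The value at 80 dyne/cm2 was 0.11 (SE 0.11, 95% interval -0.15 to 0.38, adjusted p = 0.566). The call at 2 dyne/cm2 was lost without donor 1 (adjusted p = 0.101) and without donor 2 (adjusted p = 0.0683).

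F11R (ENSSSCG00000006369; chromosome 4, 89425101 to 89447889) and JAM2 (ENSSSCG00000023028; chromosome 13, 189199789 to 189275843, overlapping LOC106507178) encode the junctional adhesion molecules JAM-A and JAM-B. F11R was 131, 114 and 78.7 CPM in donors 1, 2 and 3 at 2 dyne/cm2, 124, 147 and 87.1 CPM in set 1, 131, 121 and 96.7 CPM in set 2 and 145, 159 and 126 CPM at 80 dyne/cm2. Donor 3 was lowest in each group, and donors took 58.6% of the variance. The groups overlapped, and the log2 fold change was -0.13 (SE 0.11, edgeR adjusted p = 0.424) at 2 dyne/cm2 and 0.31 (SE 0.09, adjusted p = 0.0765) at 80 dyne/cm2, where all 3 donors were higher than their controls. Without donor 1 the latter passed (adjusted p = 0.0168 in edgeR). JAM2 was 24.4, 19.1 and 22.5 CPM at 2 dyne/cm2, 30.2, 26.3 and 24.4 CPM in set 1, 37.5, 27.0 and 38.0 CPM in set 2 and 30.5, 31.2 and 33.4 CPM at 80 dyne/cm2. Its level in set 2 was above that in set 1 in each donor, and no change passed in edgeR against the paired control (log2 fold change -0.28, SE 0.11, adjusted p = 0.114 at 2 dyne/cm2 and -0.10, SE 0.12, adjusted p = 0.630 at 80 dyne/cm2). Against set 2, JAM2 was lower at 2 dyne/cm2 by a log2 fold change of -0.62 (edgeR adjusted p = 0.0115), and against set 1 its sign at 80 dyne/cm2 turned (0.23).

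Tight junctions were represented by a sealing protein and by its scaffold. OCLN (ENSSSCG00000021514; chromosome 16, 47600175 to 47652435) encodes occludin. It was 37.7, 35.3 and 36.7 CPM in donors 1, 2 and 3 at 2 dyne/cm2 and 42.5, 20.4 and 32.6 CPM in set 1. It was 48.8, 25.6 and 42.7 CPM in set 2 and 36.8, 16.8 and 44.4 CPM at 80 dyne/cm2. Donor 2 was lowest in each group, most clearly at 30 and 80 dyne/cm2, while the spread was small at 2 dyne/cm2 (mean 36.6 ± 1.25 CPM, SD, n = 3, against 31.8 ± 11.08 CPM in set 1). The groups overlapped and the log2 fold changes were 0.28 (SE 0.19, edgeR adjusted p = 0.329) and -0.32 (SE 0.13, adjusted p = 0.181) at 2 and 80 dyne/cm2, the former turning to -0.041 against set 2.

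TJP1 (ENSSSCG00000004854; chromosome 1, 144930387 to 145195857, overlapping SEH1L) encodes ZO-1, which ties tight junction proteins to actin. Its level was 236, 198 and 254 CPM in donors 1, 2 and 3 at 2 dyne/cm2 and 184, 183 and 181 CPM in set 1. In set 2 it was 216, 199.7 and 190.1 CPM, and at 80 dyne/cm2 192, 149 and 184 CPM. Thus TJP1 was the one gene of the 9 whose level at 2 dyne/cm2 was above that of set 1 in all libraries. The log2 fold change of 0.34 (SE 0.11, 95% interval 0.065 to 0.61) did not pass in edgeR (adjusted p = 0.0754), but did so when all 12 libraries were fitted together (adjusted p = 0.0242). The 12-library fit called more genes in general, 4586 of 11568 against 2895 of 11226. Against set 2 the log2 fold change of TJP1 was 0.18 (edgeR adjusted p = 0.249). At 80 dyne/cm2 all donors were lower than in set 2 and the groups overlapped (log2 fold change -0.22, SE 0.10, adjusted p = 0.214).

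PARD6A (ENSSSCG00000034863; chromosome 6, 28280502 to 28282923) encodes Par6α, the adaptor that brings Cdc42 and atypical protein kinase C to Par3 at junctions. It was the gene with the fewest counts, 32 to 61 at 2 dyne/cm2, 101 to 175 in set 1, 67 to 129 in set 2 and 119 to 273 at 80 dyne/cm2. In donors 1, 2 and 3 this gave 0.899, 1.97 and 1.06 CPM at 2 dyne/cm2 against 2.50, 3.36 and 5.25 CPM in set 1, without overlap. Under supra-high WSS it was 3.18, 8.40 and 6.61 CPM against 1.87, 3.50 and 3.28 CPM in set 2, and here donor 1 at 80 dyne/cm2 lay below donors 2 and 3 of the control. In each donor the level was lowest at 2 dyne/cm2 and highest at 80 dyne/cm2. PARD6A fell by 1.48 on the log2 scale at 2 dyne/cm2 (SE 0.34, edgeR adjusted p = 0.0341), a fold of 0.358 (95% interval of the fold 0.197 to 0.649). It rose 2.03-fold at 80 dyne/cm2 (95% interval of the fold 1.56 to 2.65). The log2 fold change was 1.02 (SE 0.16, edgeR adjusted p = 0.0137), with 0.77, 1.27 and 1.01 in the donors. In edgeR both calls rested on the pairing within donors, since without the donor block the values were -1.49 (edgeR adjusted p = 0.0747) and 1.07 (SE 0.44, adjusted p = 0.598). DESeq2 without the block still called the fall, which was lost in 3 of 13 alternatives. In edgeR the fall was also lost without donor 1 (adjusted p = 0.0742) or donor 3 (0.0800), and the rise without donor 2 (0.0727) or donor 3 (0.112). Against set 1 the change at 80 dyne/cm2 was 0.66 (adjusted p = 0.329).

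**Figure D2:**
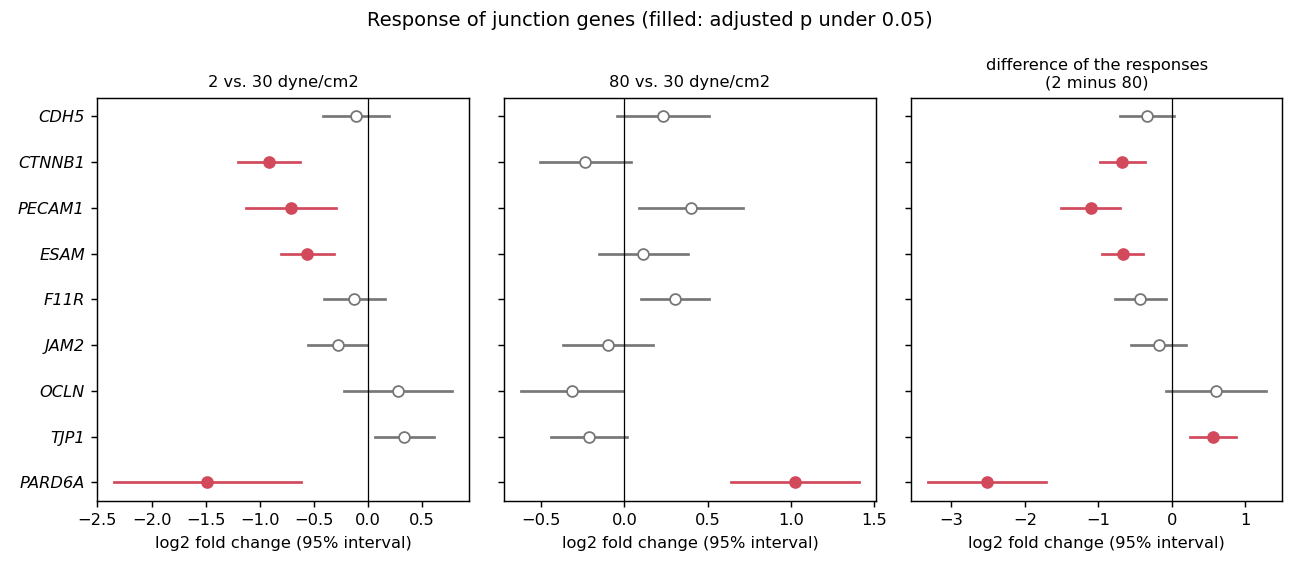
Log2 fold changes (horizontal axes) with 95% intervals for the 9 genes at 2 vs. 30 dyne/cm2, at 80 vs. 30 dyne/cm2, and for the first minus the second. Filled markers have an adjusted p under 0.05 in edgeR's quasi-likelihood test with the donor as a block. PARD6A lay at -1.48, 1.02 and -2.52, and CTNNB1 below 0 in all 3 panels.

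Groups did not overlap for 5 of the 9 genes at 2 dyne/cm2 (CTNNB1, PECAM1, ESAM, TJP1 and PARD6A), against a background of 37.8% of genes tested. Under supra-high WSS this held for 1 gene, PECAM1, against 14.9%. All 3 donors moved the same way in 7 of 9 genes at 2 dyne/cm2 (background 65.9%) and in 6 of 9 genes at 80 dyne/cm2 (49.4%). Between the 2 sets at the same WSS, groups did not overlap for 1 of the 9 genes, TJP1 (background 10.1%), and 5 of 9 genes moved the same way in all donors (44%), counts equal or close to those at 80 dyne/cm2. Levels ordered upwards from 2 to 30 to 80 dyne/cm2 in all donors were seen in 2 genes, PECAM1 and PARD6A, and in 5.11% of 11568 genes, while 0 of the 9 genes were ordered downwards in all donors (background 4.11%). The 9 genes had a median log2 fold change of -0.28 under low WSS and 0.11 under supra-high WSS, where the medians of all genes were 0.0025 and -0.0058.

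Whether the genes responded differently to low and to supra-high WSS was tested on all 12 libraries as the change at 2 dyne/cm2 minus the change at 80 dyne/cm2. Of the 9 genes, 5 passed in edgeR, 4 of them with the lower value at 2 dyne/cm2, and the background was 37.1% (17.9% lower and 19.3% higher). The difference was -2.52 (SE 0.36, adjusted p = 7.97e-04) for PARD6A, -1.10 (SE 0.18, adjusted p = 0.00155) for PECAM1 and -0.67 (SE 0.13, adjusted p = 0.00325) for ESAM, and these 3 calls held in all 9 alternatives run for this contrast. It was -0.67 (SE 0.13, adjusted p = 0.00436) for CTNNB1. CTNNB1 was lower than its control in every donor under both conditions. Its change at 80 dyne/cm2 did not pass (95% interval -0.51 to 0.038, edgeR adjusted p = 0.249), so a shared direction is not settled. TJP1 went the other way (0.56, SE 0.14, edgeR adjusted p = 0.0119). The CTNNB1 call was lost without the donor block (adjusted p = 0.0586 in edgeR), without donor 1 (0.0722) and without donor 3 (0.0618), and the TJP1 call without donor 1 (0.0880) and donor 3 (0.0620). CDH5 (-0.34, edgeR adjusted p = 0.133), OCLN (0.60, 0.145), F11R (-0.42, 0.0562) and JAM2 (-0.18, 0.437) did not pass.

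The 2 sets at 30 dyne/cm2 gave the background for the same WSS. Of the 9 genes, 0 passed between the sets in edgeR and 0 in DESeq2 with the donor term, and 0% of all 11568 genes passed in edgeR, of which 1605 had an unadjusted p under 0.05 and DESeq2 called 246. At an unadjusted p under 0.05, 1 of the 9 genes differed, JAM2, with a log2 difference of 0.33 (SE 0.12, edgeR adjusted p = 0.283), and the largest difference in size was -0.38 for PARD6A (SE 0.24, adjusted p = 0.517). The changes of CTNNB1, PECAM1, ESAM and PARD6A at 2 dyne/cm2 were larger than any of these differences. Those of CDH5, F11R, JAM2, OCLN and TJP1 were smaller than the largest of them, that of PARD6A. Beside the same gene's own difference between the sets, the change was larger for TJP1 (0.34 against 0.15) and F11R (-0.13 against -0.017). It was smaller in size for CDH5 (-0.11 against -0.17), JAM2 (-0.28 against 0.33) and OCLN (0.28 against 0.30).

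Counts of the other genes were also expressed per 100 CDH5 counts of the same library, as a description that needs no library scaling. It does not assume a constant CDH5, which was higher than its control in all 3 donors at 80 dyne/cm2 (0.10, 0.35 and 0.25 on the log2 scale), and any change in CDH5 enters these ratios. CTNNB1 was 63.5 ± 13.7 (SD, n = 3) at 2 dyne/cm2 and 110.2 ± 18.8 in set 1, with log2 ratios of -0.88, -0.79 and -0.74 in the 3 donors. PECAM1 was 115 ± 8.69 against 175 ± 10.2, ESAM 24.5 ± 3.89 against 33.2 ± 1.46 and TJP1 13.7 ± 2.84 against 9.96 ± 0.678. The groups of these 4 genes and of PARD6A did not overlap on this scale. They are the same genes as in CPM, where 37.8% of all genes did not overlap. The share of all genes on the CDH5 scale was not computed, so this adds no separate evidence. Under supra-high WSS CTNNB1 was 90.4 ± 30.8 against 124 ± 37.7 in set 2, with lower values in all 3 donors and overlapping groups. TJP1 was 9.30 ± 2.47 against 12.4 ± 1.66, also lower in all 3 donors. The mean log2 ratio at 80 dyne/cm2 was -0.45 for TJP1 and -0.12 for ESAM per CDH5, whereas their log2 fold changes in CPM were -0.22 and 0.11. Against the other set at 30 dyne/cm2 the mean log2 ratio of TJP1 to CDH5 was 0.13 and -0.13 at 2 and 80 dyne/cm2, in place of 0.44 and -0.45.

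**Figure D3:**
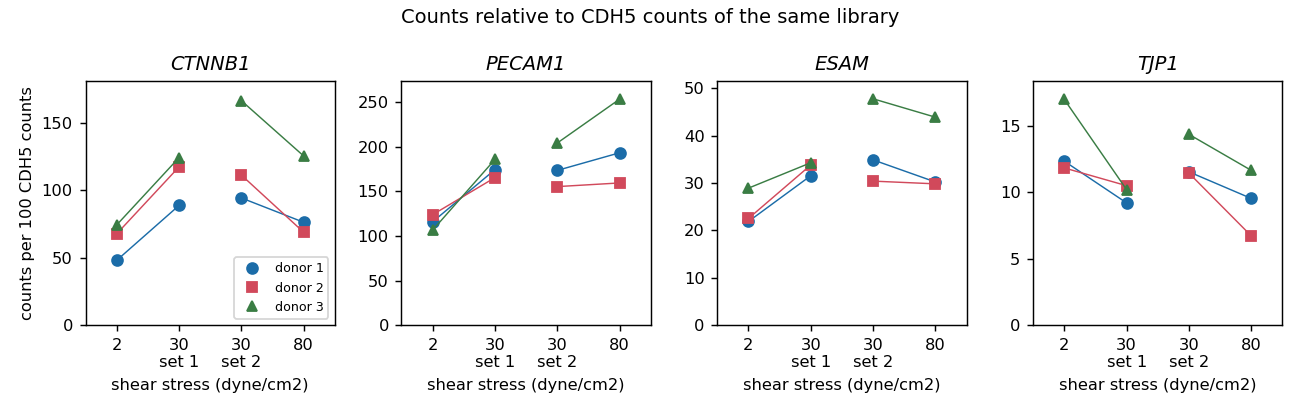
Counts of CTNNB1, PECAM1, ESAM and TJP1 per 100 CDH5 counts of the same library (vertical axes, from 0) by WSS in dyne/cm2. Markers are libraries, coloured by donor, and lines join the cultures compared. At 2 dyne/cm2 the ratio to CDH5 was lower than in set 1 for CTNNB1, PECAM1 and ESAM in each donor and higher for TJP1.

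Donors and groups divided the variance of log2 CPM unequally among the genes, where the 4 groups include both sets at 30 dyne/cm2 and so are not WSS alone. The groups took 89.7% for ESAM, 87.2% for CTNNB1, 87.0% for PECAM1, 72.4% for PARD6A, 71.4% for JAM2 and 62.5% for TJP1. For CDH5, F11R and OCLN the donors took more than the groups, 55.7, 58.6 and 64.5%. The medians over 11568 genes were 41.7% for the groups and 31.1% for donors.

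Partners, relatives and regulators of these proteins were read from a list of 84 other junction genes, of which 52 were tested in each comparison. At 2 dyne/cm2, 7 of them rose, 11 fell and 34 did not pass, with a median log2 fold change of 0.018, where 13.4% of all genes rose and 12.4% fell. Under supra-high WSS, 4 rose, 1 fell and 47 did not pass, against 4.36% and 4.04% of all genes. These shares are also the background for the smaller groups of genes that follow. Without the donor block 7 of the 52 genes passed in edgeR at 2 dyne/cm2 and 0 at 80 dyne/cm2, where 7 had an unadjusted p under 0.05 and DESeq2 called 2. Of all genes, 1244 of 11226 and 0 of 11187 passed in these edgeR fits. At 80 dyne/cm2, 929 of all genes had an unadjusted p under 0.05 and DESeq2 called 230.

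Among 11 tested partners of adherens junctions, 2 fell at 2 dyne/cm2 (background 12.4%) and 0 rose. Both are receptor phosphatases, PTPRB (VE-PTP, which binds VE-cadherin) at -0.45 (SE 0.09, edgeR adjusted p = 0.0273) and PTPRM (-0.49, SE 0.13, adjusted p = 0.0473), and their calls were lost in 5 and 3 of 13 alternatives, each without the donor block, without donor 1 and without donor 2, and PTPRB also without donor 3. JUP, which encodes plakoglobin, the catenin related to β-catenin, was at 0.012 (SE 0.08, adjusted p = 0.925), a sign that turned in 5 of 13 alternatives. Under supra-high WSS, 1 of 10 fell, CDH13 (T-cadherin, which lacks a cytoplasmic tail), at -0.55 (SE 0.12, edgeR adjusted p = 0.0364). Its call was lost in 7 of 13 alternatives, among them without donor 2 or donor 3, and against set 1 it was at -0.28 (edgeR adjusted p = 0.435).

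Of 11 tested tight junction genes, 3 rose (background 13.4%) and 1 fell (12.4%) at 2 dyne/cm2. The scaffolds MAGI3 (0.76, SE 0.08, edgeR adjusted p = 0.00681) and MAGI1 (0.69, SE 0.10, adjusted p = 0.0121) rose, and both calls held in all 13 alternatives. MAGI3 was 65.4 ± 5.77 CPM at 2 dyne/cm2 and 39.0 ± 3.69 CPM in set 1. CLDN6, a claudin, rose by 0.98 (SE 0.24, adjusted p = 0.0410) at 4.65 to 12.8 CPM, against 1.62 to 9.14 CPM in set 1, so the groups overlapped, and its call was lost in 4 of 13 alternatives, among them leaving out donor 2 or donor 3. CLMP, an adhesion molecule related to the coxsackievirus and adenovirus receptor, fell to 0.454 ± 0.0589 CPM (12 to 20 counts) from 4.86 ± 2.53 CPM, a log2 fold change of -3.27 (SE 0.38, adjusted p = 0.00826) that passed in all 13 alternatives. It rose at 80 dyne/cm2 from 2.25 ± 0.514 to 5.68 ± 1.37 CPM (1.33, SE 0.18, edgeR adjusted p = 0.00748), but against set 1 that change was 0.32 (adjusted p = 0.571), and without donor 3 the call was lost (adjusted p = 0.0751).

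Of 12 tested polarity genes, 2 fell at 2 dyne/cm2 (background 12.4%) and 0 rose. These were PARD3B, a relative of Par3 (-0.80, SE 0.12, edgeR adjusted p = 0.0142), and LLGL2, the Lgl homologue of the Scribble module (-0.65, SE 0.11, adjusted p = 0.0167), each called in 12 of 13 alternatives (PARD3B not without the donor block, LLGL2 not without donor 1). The relatives of PARD6A had positive values that did not pass, PARD6B at 0.40 (SE 0.19, adjusted p = 0.176) and PARD6G at 0.59 (SE 0.33, adjusted p = 0.229), and PARD3 was at 0.33 (SE 0.09, adjusted p = 0.0535). Of 13 polarity genes tested at 80 dyne/cm2, edgeR and DESeq2 with the donor term both called 0. In edgeR 4 of the 13 had an unadjusted p under 0.05, as did 2921 of all 11187 genes tested. Of 3 other molecules of the cell border, ROBO4, a guidance receptor of ECs (0.50, SE 0.10, edgeR adjusted p = 0.0251), and CD99L2, which acts in leukocyte passage (0.41, SE 0.11, adjusted p = 0.0489), rose at 2 dyne/cm2. The ROBO4 call was lost in 6 and the CD99L2 call in 9 of 13 alternatives, both of them against set 2 (edgeR adjusted p = 0.0797 and 0.0657) and without any 1 of the donors. MCAM (CD146) rose at 80 dyne/cm2 (0.77, SE 0.15, edgeR adjusted p = 0.0251) at 60.2 to 316 CPM, and against set 1 it was at -0.036. Without donor 2 that call was lost (edgeR adjusted p = 0.0733).

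Regulators of junctions, among them genes of the Rap1 and cerebral cavernous malformation (CCM) pathways, gave 6 genes that fell and 2 that rose of 15 tested at 2 dyne/cm2, against 12.4% and 13.4% of all genes. HEG1, the membrane receptor of the CCM complex, fell to 779 ± 129 CPM from 1858 ± 226 CPM (log2 fold change -1.24, SE 0.19, edgeR adjusted p = 0.0144). This call held in all 13 alternatives. The Rap1 effector RASIP1 (-0.72, SE 0.10, edgeR adjusted p = 0.0116) and the Rap1 exchange factor RAPGEF1 (-0.68, SE 0.14, adjusted p = 0.0278) fell, whereas ARHGAP29, a partner of RASIP1 (0.65, SE 0.13, adjusted p = 0.0284), and RAPGEF2 (0.61, SE 0.12, adjusted p = 0.0255) rose. Of 13 alternatives, the call was lost in 1 for RASIP1, 2 for RAPGEF1 (without donor 1 or donor 3), 3 for ARHGAP29 (among them without donor 2 or donor 3) and 3 for RAPGEF2 (among them without donor 1 or donor 3). At 80 dyne/cm2 2 of 15 rose, CCM2, a scaffold of the CCM complex (0.44, SE 0.09, edgeR adjusted p = 0.0260), and RAPGEF1 (0.39, SE 0.08, adjusted p = 0.0321). These calls were lost in 7 and 6 of 13 alternatives, both of them without donor 2 or donor 3, and against set 1 the values were 0.24 (edgeR adjusted p = 0.472) and 0.18 (adjusted p = 0.604).

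**Figure D4:**
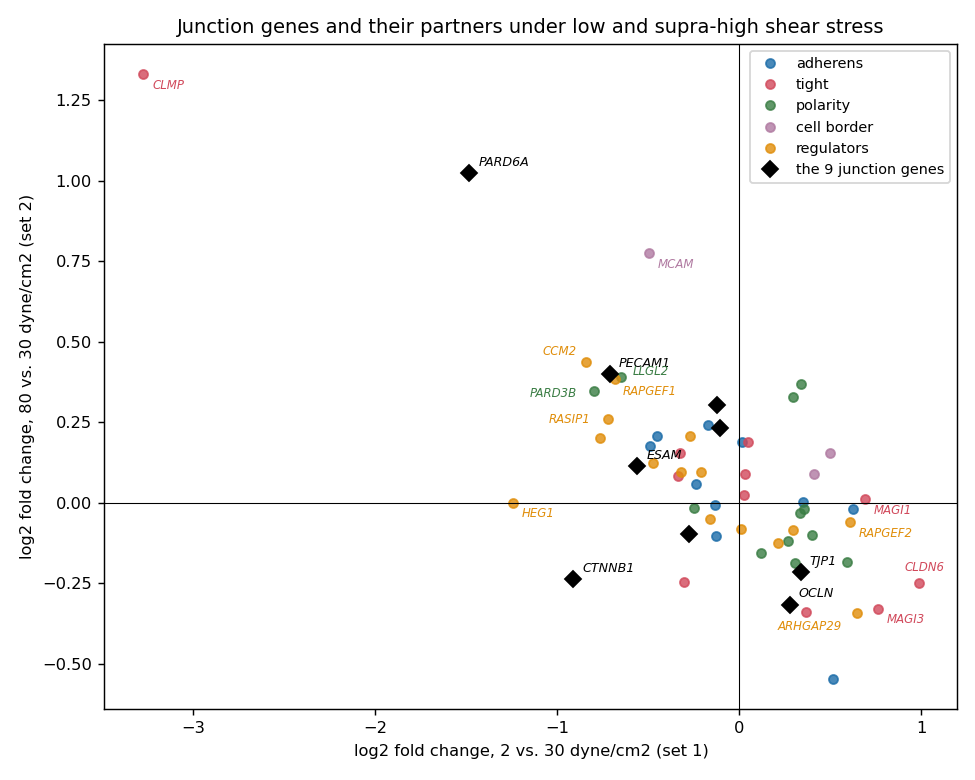
Log2 fold change at 2 vs. 30 dyne/cm2 (set 1, horizontal axis) and at 80 vs. 30 dyne/cm2 (set 2, vertical axis) of the 9 junction genes (black diamonds) and of 51 other junction genes tested in both (dots, coloured by list). CLMP at -3.27 and 1.33 and PARD6A at -1.48 and 1.02 lay farthest from the origin.

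The genes whose profile over the 12 libraries was most like that of CDH5, among 9676 genes with a symbol and with levels centred on the donor mean, were SPRED3 (r = 0.955), PPFIA1 (r = 0.933) and SH3RF2 (r = 0.930). For PARD6A they were ENO1, a glycolytic enzyme (r = 0.992), DOT1L, a histone methyltransferase (r = 0.992), and P2RX5, an ATP-gated channel (r = 0.990). ENO1 was 955 ± 166, 1616 ± 181, 1437 ± 64.2 and 2004 ± 60.5 CPM at 2 dyne/cm2, in sets 1 and 2 and at 80 dyne/cm2. These correlations describe points that share donors and libraries. Levels not centred on the donor gave PPFIA1 and CDH5 an r of 0.143.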

How the data were processed

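RNA of 12 cultures was sequenced (single-end, Illumina). The authors deposited raw counts of reads per Ensembl gene, not normalized. Per the labels, CASAVA 1.8.2, STAR 2.4 and featureCounts 1.4.6 were used with Sscrofa11.1, and reads mapping to several places were discarded. Whether counting used strand is not given in the sources used here, so reads in exons shared with overlapping genes cannot be told apart. Precision is set by 3 donors per group.

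Symbols (14572 genes) and positions are from RefSeq tables of Sscrofa11.1. In R 4.3.3 with edgeR 4.0.16, counts were scaled by TMM, genes reaching 1 CPM in 3 or more libraries were kept, and the quasi-likelihood test was run with the replicate number as a block, with Benjamini-Hochberg adjustment over all genes. The study states that conditions were compared within donor and passage. With group means removed, the 18 pairs of libraries sharing a number correlated at 0.672 to 0.876 and the 36 other pairs at -0.552 to -0.190 over 11568 genes. The SE is the log2 fold change divided by the square root of F. CPM use TMM sizes over 12 libraries. Gene lengths were not used, so levels were not compared between genes.

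All members were named. From each list of other junction genes, those passing were named, up to 4 by size in each direction with at least 50 counts on average, as were 4 relatives of members (JUP, PARD6B, PARD6G and PARD3), chosen after their values were seen. One regulator so chosen is left unnamed here. Likeness was sought for CDH5 and PARD6A. The members and lists were chosen with earlier results of these data known. Alternatives were RLE scaling, DESeq2 1.42.0, other filters, no block, all libraries in 1 fit, the other or both control sets and each donor left out. Library totals and DESeq2 without the block were added after seeing the data. The edgeR fits of low and supra-high WSS against their paired control sets, with the replicate block, were first checked on simulated counts with known changes.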

Additional observations from a re-analysis of the deposited data

How the results depend on the processing

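Without the replicate block the biological coefficient of variation rose from 15.5 to 27.6% at 2 dyne/cm2 and from 11.4 to 29.4% at 80 dyne/cm2. At 2 dyne/cm2, 0 members then passed with a 2-fold change and 7 other junction genes passed, and at 80 dyne/cm2 0 members (0 with a 2-fold change) and 0 other junction genes did. Over all genes the calls fell from 2895 to 1244 and from 940 to 0. With the 2-fold change they fell from 1078 to 635 and from 246 to 0. Of 61 tested values of named genes, 52 kept their direction in all alternatives run for them, and 23 also their side of the threshold.

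At 80 dyne/cm2, where 1 member (PARD6A, also 2-fold) and 5 other junction genes had passed, the counts were 0, 0 and 1 with all 12 libraries in 1 fit, 0, 0 and 0 with the other control set, and 0, 0 and 1 with both sets. Calls over all genes fell from 940 to 380, 26 and 328 in the same fits. With the 2-fold change they fell from 246 to 136, 24 and 84. DESeq2 with the donor term called 2 members, no filter gave 8 other junction genes, and library totals gave 0 members with a 2-fold change. DESeq2 without the block gave 0 such members and 2 other junction genes. At 2 dyne/cm2 both control sets gave 29 other junction genes in place of 18, and 4252 calls over all genes in place of 2895. Over all genes at 80 dyne/cm2, DESeq2 with the donor term called 1150, the fit with no filter 1359 and DESeq2 without the block 230. With the 2-fold change, 260 of all genes passed with library totals and 66 in DESeq2 without the block.

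Leaving out 1 donor, with 2 left per group, gave 0 to 3 members, 0 to 1 with a 2-fold change and 9 to 11 other junction genes at 2 dyne/cm2. Without donor 1 it was 0 members. At 80 dyne/cm2 it gave 0 to 3 members, 0 to 1 with a 2-fold change and 1 to 13 other junction genes, the 3 and the 13 without donor 1. For the difference of responses 3 to 5 members passed, 3 without donor 1 or donor 3. Calls over all genes moved as well. Without donors 1, 2 and 3 they were 1510, 2008 and 1530 at 2 dyne/cm2 (2895 with all donors). At 80 dyne/cm2 they were 2080, 371 and 184 (940 with all donors), and for the difference 2403, 3299 and 1949 (4294 with all donors). With the 2-fold change, 1024, 1154 and 785 of all genes passed at 2 dyne/cm2 (1078 with all donors). At 80 dyne/cm2 these counts were 343, 151 and 144 (246 with all donors).

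Signs turned as follows, in values that had not passed except MCAM. At 2 dyne/cm2 the other set gave 0.054 for CDH5, -0.041 for OCLN and -0.11 for JUP, and JUP was -0.052 with both sets, -0.0035 with no filter and -0.0037 with library totals. At 80 dyne/cm2 the other set gave 0.23 for JAM2 and -0.036 for MCAM, and both sets 0.061 for JAM2. With library totals the difference between the sets at 30 dyne/cm2 was 0.011 for ESAM and 0.0048 for F11R. With 1 donor left out, values spanned -0.012 to 0.029 for JUP at 2 dyne/cm2, -0.33 to 0.052 for JAM2 in the difference of responses and, between the sets at 30 dyne/cm2, -0.044 to 0.059 for ESAM, -0.098 to 0.12 for F11R and -0.038 to 0.0033 for CTNNB1, each positive or, for JUP, negative without donor 2. The causes were not tested.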
